A study of Glycine max with 3 samples.

Results

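The 4 gene models Glyma02g13210, Glyma19g42940, Glyma01g07580 and Glyma05g00220 of soybean (Glycine max), listed as members of the CYP78A family of cytochrome P450 genes, were followed through 3 compartments of the developing seed. They are 4 of the 66210 gene models counted. The first 2 were chosen by their measured embryo proper against seed coat difference, the highest of all gene models compared, and the other 2 by being listed in the same family, in both cases with earlier results of these libraries known. The family assignment comes from that list. No gene names accompany the identifiers in the deposited tables, and the reference table (Glycine_max_v4.0) matched 0 of the 4 identifiers, so the assignment could not be checked here. By symbol or synonym that table holds 2 genes of the family, CYP78A10 on chromosome 5 and a gene with the synonym CYP78A3 on chromosome 19, and neither is paired with an identifier of the tables.

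Cytochrome P450 enzymes of the CYP78A family are found in land plants and act as monooxygenases in the endoplasmic reticulum. In Arabidopsis, family members such as KLUH promote the growth of organs and seeds. For seeds, KLUH acts from the maternal tissue that surrounds the embryo sac, without the cells that respond having to express it. Family members have been linked to seed size in soybean as well. Which of these roles, if any, applies to a given gene model of the 4 is not known from the sources used here.

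Each compartment was cut by laser capture from paraffin sections of seeds of the cultivar Asgrow A3237 and sequenced as 1 library. The embryo proper, from which the seedling develops, and the suspensor, the stalk that connects it to the mother plant, came from globular-stage embryos in pods of 0.5 to 1.2 cm and from sections of 6 µm. The seed coat parenchyma, a maternal layer, came from early maturation-stage seeds 6.0 to 7.0 mm long and from sections of 8 µm, cut on another instrument, so tissue, stage and instrument cannot be told apart in any comparison with it. No library has a replicate, no p-value can be given, and all intervals below are 95% intervals that cover counting error only. The libraries held 11603055, 8365831 and 11894273 reads assigned to gene models, in the order embryo proper, suspensor and seed coat parenchyma. Levels are CPM, reads for each 1000000 reads of the library, after TMM scaling, which corrects library totals for differences in composition, and 1 CPM stood for 11.5, 6.96 and 14.4 reads in that order. The labelled compartments could not be checked against marker genes, since no identifier has a name.

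The 4 gene models together took 4.77% of all reads of the embryo proper library (Wilson interval 4.76 to 4.78%). In the suspensor they took 0.933% (0.926 to 0.939%), and in the seed coat parenchyma 0.000521% (0.000407 to 0.000668%). Most of these reads came from 2 gene models. Glyma02g13210 and Glyma19g42940 accounted for 4.70% of the reads in the embryo proper and for 0.793% in the suspensor. The levels therefore spanned several orders of magnitude between libraries, with both embryo regions far above the seed coat for the summed reads. These are shares of reads and not of transcripts, because gene lengths are not in the tables, and a lower level in a captured region can mean fewer cells with the transcript or less of it per cell.

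**Figure D1:**
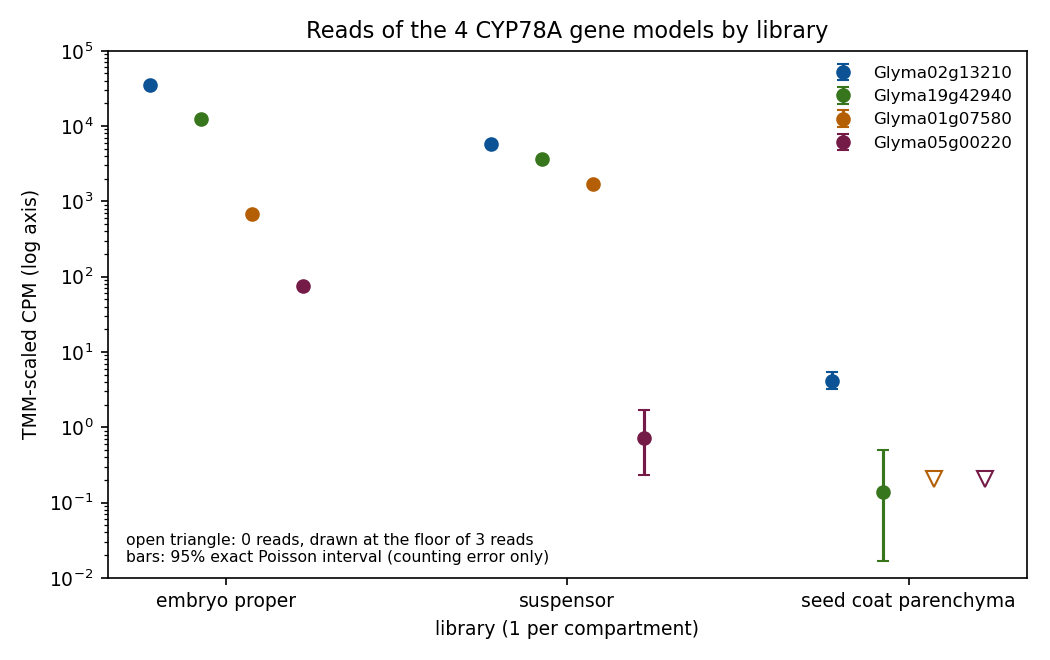
TMM-scaled CPM (log axis) of each gene model in the 3 libraries, with exact Poisson intervals as bars; open triangles mark 0 reads, drawn at the floor of 3 reads. Glyma01g07580 is the gene model that sits higher in the suspensor than in the embryo proper, and Glyma05g00220 falls near the floor already in the suspensor; heights of different gene models are not corrected for length.

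Glyma02g13210, on chromosome 2, was counted 402539 times in the embryo proper. The suspensor library held 40732 of its reads and the seed coat parenchyma library 60. These counts stood for 34902 CPM (Poisson interval 34794 to 35010), 5854 CPM (5797 to 5911) and 4.17 CPM (3.18 to 5.37). No other gene model took as many reads of the embryo proper library, and in the suspensor 8 others took more. The levels fell from embryo proper to suspensor to seed coat, and the seed coat level was part of the contrast that chose this gene model.

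Glyma19g42940, on chromosome 19, had 142593, 25585 and 2 reads in the embryo proper, suspensor and seed coat parenchyma. Its levels were 12363 CPM (12299 to 12428), 3677 CPM (3632 to 3722) and 0.139 CPM (0.0168 to 0.502). It followed the same order of libraries as Glyma02g13210, and its seed coat level was likewise part of its choice. By number of reads it ranked 5 in the embryo proper library and 16 in the suspensor library.

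Glyma01g07580, on chromosome 1, had 7747 embryo proper reads, 11724 suspensor reads and 0 seed coat reads. The levels were 672 CPM (657 to 687) in the embryo proper and 1685 CPM (1655 to 1716) in the suspensor. The 0 reads in the seed coat parenchyma were set at the floor of 3 reads, which stood for 0.209 CPM, and the upper end of their exact 95% interval was 0.256 CPM. This gene model was high in both embryo regions but, unlike the other 3, higher in the suspensor. In all, 96 gene models reached 500 CPM in both embryo libraries, and 4 of those, Glyma01g07580 included, had 0 reads in the seed coat parenchyma. With a limit of at most 2 seed coat reads the number was 6. The limit of 0 reads equals the count of Glyma01g07580, so its place among the 4 is no separate result.

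Glyma05g00220, on chromosome 5, had 866 embryo proper reads, 5 suspensor reads and 0 seed coat reads. It stood at 75.1 CPM (70.2 to 80.3) in the embryo proper and 0.719 CPM (0.233 to 1.68) in the suspensor. In the seed coat the same floor and interval hold for its 0 reads, and the suspensor value rests on 5 reads. Of 3841 gene models whose embryo proper level reached 50 CPM, 63 had at most 5 reads in the suspensor, and 14 of these, with Glyma05g00220 among them, had 0 reads in the seed coat parenchyma as well. The limits of 5 and 0 reads equal the counts of Glyma05g00220, so its place among the 14 is no separate result.

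The first comparison set the 2 regions of the globular embryo against each other, a contrast that did not choose the gene models, although it uses the embryo proper library that did. Glyma02g13210 was 5.96-fold higher in the embryo proper (counting interval 5.90 to 6.02) and Glyma19g42940 was 3.36-fold higher (3.32 to 3.41). Other scalings moved these ratios beyond their counting intervals, to 5.51 and 3.11 with DESeq2 size factors and to 7.13 and 4.02 with unscaled totals. Glyma05g00220 was higher by a ratio of 104 (44.6 to 323), which rests on 5 suspensor reads. Glyma01g07580 went the other way, with a level 2.51-fold higher in the suspensor (2.44 to 2.58). All 4 intervals lie away from equal levels, 3 toward the embryo proper and 1 toward the suspensor. How many of all gene models have such intervals was not counted, and with 1 library per region nothing further is read from this.

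Against all gene models the family members were spread widely in this contrast. Differences were taken on the log2(CPM + 1) scale, which understates those of low genes. They were compared among the 19940 gene models whose mean reached 5 CPM, a minimum that all 4 passed. Glyma05g00220 passed only through its embryo proper level. With its other levels below 1 CPM, passing already required a difference of more than 4-fold toward the embryo proper. Its places in the counts and percentages below are therefore no separate result. A difference of 4-fold or more toward the embryo proper was found for 2 of the 4, Glyma02g13210 at 2.58 and Glyma05g00220 at 5.47, beside 15.2% of all gene models compared. On the suspensor side 0 of 4 reached 4-fold, beside 14.0% of all. Glyma19g42940 lay below 4-fold at 1.75, a ratio of 3.36. With unscaled library totals its ratio was 4.02, which made the number 3 of 4 beside 17.6% of all. Glyma01g07580 was at -1.33, so that at 2-fold the members divided into 3 toward the embryo proper and 1 toward the suspensor, beside 28.9% and 27.5% of all. At 8-fold toward the embryo proper, 1 of the 4 remained past the limit, beside 7.31% of all. The median over the 4 was 2.16, beside 0.00 over all gene models compared. Of all gene models compared, 22.4% had a lower difference than Glyma01g07580, 82.0% a lower one than Glyma19g42940, 89.8% a lower one than Glyma02g13210 and 99.6% a lower one than Glyma05g00220. With 4 gene models and no replicate, the count of 2 is a description of these libraries.

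**Figure D2:**
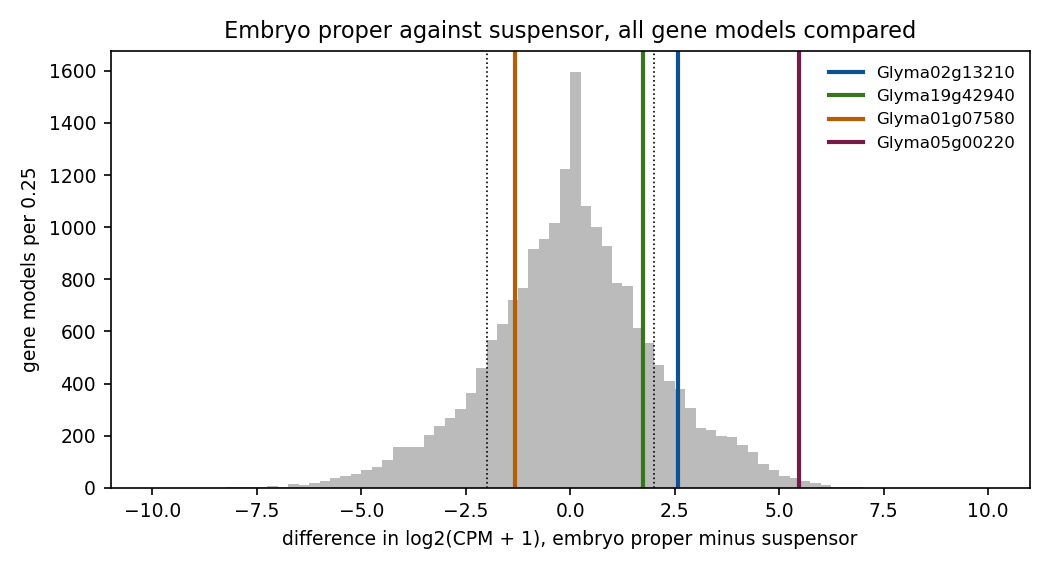
Number of gene models (bins of 0.25) by their difference in log2(CPM + 1), embryo proper minus suspensor, for the 19940 compared; coloured lines mark the 4 gene models and dotted lines the 4-fold limits. The lines stand at -1.33, 1.75, 2.58 and 5.47, from the suspensor side of the distribution to its far embryo proper end.

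Because gene length and library scaling cancel when the embryo proper to suspensor ratios of 2 gene models are divided by each other, the gene models could also be compared among themselves. All 6 pairs differed by more than counting error, the only error these intervals cover. How often pairs of other gene models differ in this way was not counted, so the 6 are given as a description. Glyma02g13210 and Glyma19g42940 were the closest pair, with the ratio of the first 1.77 times that of the second (exact interval 1.74 to 1.80). The ratio of Glyma02g13210 was 15.0 times that of Glyma01g07580 (14.5 to 15.4), and that of Glyma19g42940 was 8.43 times that of Glyma01g07580 (8.17 to 8.71). Glyma05g00220 exceeded each of the others, by 17.5 times for Glyma02g13210 (7.48 to 54.1), 31.1 times for Glyma19g42940 (13.3 to 96.0) and 262 times for Glyma01g07580 (112 to 810). The handling of reads that map equally well to several places is not given in the sources used here. Where members share stretches of near-identical sequence, their reads may have been divided between them or dropped, and the counts of single members are uncertain to that extent.

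The division of the 4 gene models' reads changed accordingly between the compartments. In the embryo proper, Glyma02g13210 supplied 72.7% of the 553745 reads, Glyma19g42940 25.8%, Glyma01g07580 1.40% and Glyma05g00220 0.156%. In the suspensor the 78046 reads were divided into 52.2% for Glyma02g13210, 32.8% for Glyma19g42940, 15.0% for Glyma01g07580 and 0.00641% for Glyma05g00220. The shares of Glyma19g42940 and Glyma01g07580 were thus higher in the suspensor than in the embryo proper, that of Glyma01g07580 with exact intervals of 14.8 to 15.3% and 1.37 to 1.43%, and the shares of the other 2 were lower. In the seed coat parenchyma Glyma02g13210 held 60 of the 62 reads, or 96.8% (exact interval 88.8 to 99.6%). Glyma19g42940 held the other 2 reads, 3.23% (0.393 to 11.2%). The seed coat counts were part of the choice of these 2 gene models, so this division is a description only.

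**Figure D3:**
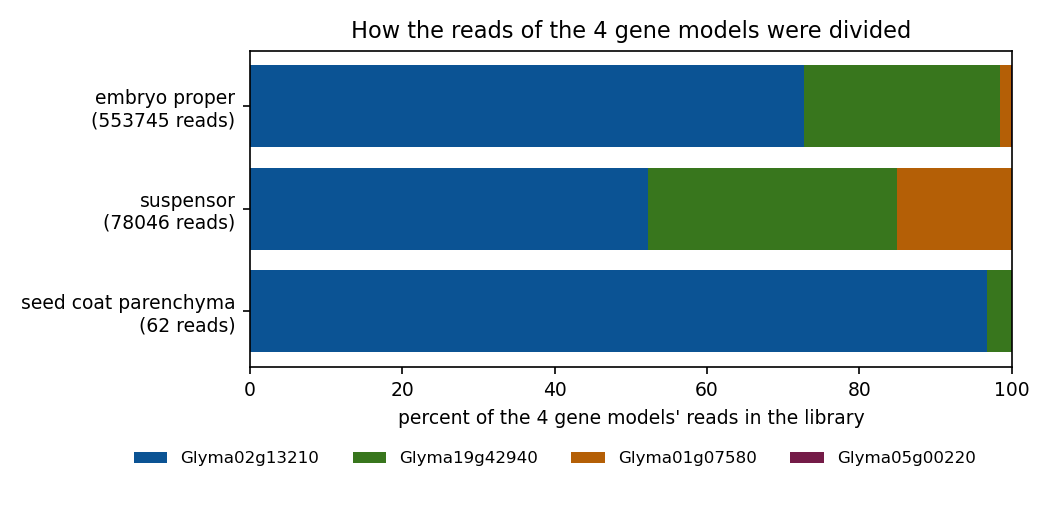
Percent of the 4 gene models' summed reads that each supplied, by library, with the number of summed reads beside each bar. Glyma01g07580 takes 15.0% in the suspensor and 1.40% in the embryo proper, and the seed coat bar rests on 62 reads; Glyma05g00220 is too small to be seen.

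The remaining comparisons, of each embryo region with the seed coat parenchyma, belong to the contrast that chose the first 2 gene models and are given as a description. In the embryo proper against the seed coat, all 4 exceeded 4-fold toward the embryo proper, beside 13.7% of the gene models compared, a count from which nothing is read. Glyma19g42940 and Glyma02g13210 ranked 1 and 2, at differences of 13.41 and 12.72 on the log2(CPM + 1) scale. The order of these 2 depends on the added constant, since Glyma19g42940 had 2 seed coat reads: with 5 CPM added its difference was 11.23, below the 11.89 of Glyma02g13210. The gene models just outside the choice were Glyma10g41250 at 10.06 and Glyma13g21280 at 9.78, followed by Glyma01g07580 at rank 5 with 9.39. Glyma05g00220 ranked 91, at 6.25, and here too it passed the minimum only through its embryo proper level. With its 0 seed coat reads set at the floor of 3, Glyma01g07580 was at least 3221-fold higher in the embryo proper and Glyma05g00220 at least 360-fold higher. These bounds hold at that floor, and the 95% counting intervals reach lower, to 2619 and 292. The embryo proper to seed coat ratio of Glyma19g42940 was 10.6 times that of Glyma02g13210 (exact interval 2.82 to 89.8). That value rests on 2 seed coat reads of Glyma19g42940 and, since this contrast chose both gene models, is a description only.

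In the suspensor against the seed coat, a comparison that shares the seed coat library with the one before, 3 of the 4 exceeded 4-fold toward the suspensor, beside 14.9% of those compared. Glyma02g13210 was 1404-fold higher (1090 to 1840). For Glyma19g42940 the ratio was 26452 (7322 to 218437), with 2 reads in the seed coat. Glyma01g07580 was at least 8081-fold higher with the seed coat at the floor, and its counting interval reached down to 6571. Glyma05g00220, the member that did not reach 4-fold, had 5 suspensor reads and 0 seed coat reads, at least 3.45-fold higher at that floor, with a counting interval that reached down to 1.89. At this depth it stood at a trace level in one library and was not detected in the other. The median difference over the 4 was 10.43 on the log2(CPM + 1) scale here and 11.06 for the embryo proper against the seed coat, beside 0.02 and 0.05 over all gene models compared.

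Other gene models with a like pattern were sought by the distance between log2(CPM + 1) values centred on their mean over the 3 libraries. With 3 values per gene model, a small distance says little more than that 2 ratios are alike. Glyma02g13210 and Glyma19g42940 were nearer to each other, at 1.07, than to any of the gene models outside the family list. The nearest of those to both was Glyma06g44550, at distances of 2.64 and 2.92, and its embryo proper, suspensor and seed coat levels were 620, 815 and 0 CPM. Next came Glyma08g47240, at 2.86 and 2.94. The choice of these 2 rested on the size of their difference from the seed coat. Neither their nearness to each other nor their distance from all others is therefore a separate result.

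For Glyma01g07580, the nearest gene model was Glyma08g47240, at a distance of 0.28, whose embryo proper, suspensor and seed coat levels were 1225, 2485 and 0.904 CPM. Glyma10g25350 followed at 0.48, with 546, 1058 and 0 CPM in the same order. Within a distance of 1, leaving out the members themselves, Glyma01g07580 had 4 gene models of the 19940 and Glyma05g00220 had 67, against 0 for each of the first 2. The nearest to Glyma05g00220 were Glyma05g31470 at 0.09, with 868, 6 and 0 reads, and Glyma17g06980 at 0.19, with 814, 3 and 0 reads. None of these gene models has a name in the sources used here.

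Soybean identifiers give the chromosome and the place of a gene model along it, and the 2 gene models on either side of each member were examined. Of these 16 neighbours, 6 had 0 reads in all 3 libraries and 6 reached a mean of 5 CPM. The highest level of a neighbour in any library was 113 CPM. All 4 neighbours of Glyma01g07580 had 0 reads throughout, although that gene model itself stood at 1685 CPM in the suspensor. Next to Glyma19g42940, the preceding gene model Glyma19g42930 was also higher in the embryo proper, at 30.6 CPM, than in the suspensor, at 3.59 CPM, and stood at 14.2 CPM in the seed coat. On chromosome 5 the second gene model after Glyma05g00220, Glyma05g00240, had an embryo proper level of 21.6 CPM, against 1.15 CPM for the suspensor and 2.09 CPM for the seed coat, highest in the embryo proper as Glyma05g00220 was. These were 2 of the 6 neighbours past the minimum, and they had an embryo proper level 4-fold or more above that of the suspensor, beside 15.2% of all gene models compared. Of the other 4, Glyma02g13230 was higher in the embryo proper (94.2 against 39.7 CPM), and 3 were higher in the suspensor. Those were Glyma02g13220 (61.8 against 26.9 CPM), Glyma19g42960 (79.9 against 40.1 CPM) and Glyma19g42910 (26.3 against 19.5 CPM). Glyma02g13220 and Glyma02g13230, which follow Glyma02g13210, reached 29.3 and 113 CPM in the seed coat parenchyma, where Glyma02g13210 was at 4.17 CPM. Against the seed coat, 0 of the 6 neighbours past the minimum were 4-fold or more lower in the embryo proper, beside 15% of all. In the embryo proper, 2 of the 6 were 4-fold or more higher than in the seed coat, beside 13.7% of all gene models compared. They were Glyma19g42910 (19.5 against 3.68 CPM) and Glyma05g00240, already named above for its difference from the suspensor. Glyma05g00240 reached the minimum only through its embryo proper level.

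**Figure D4:**
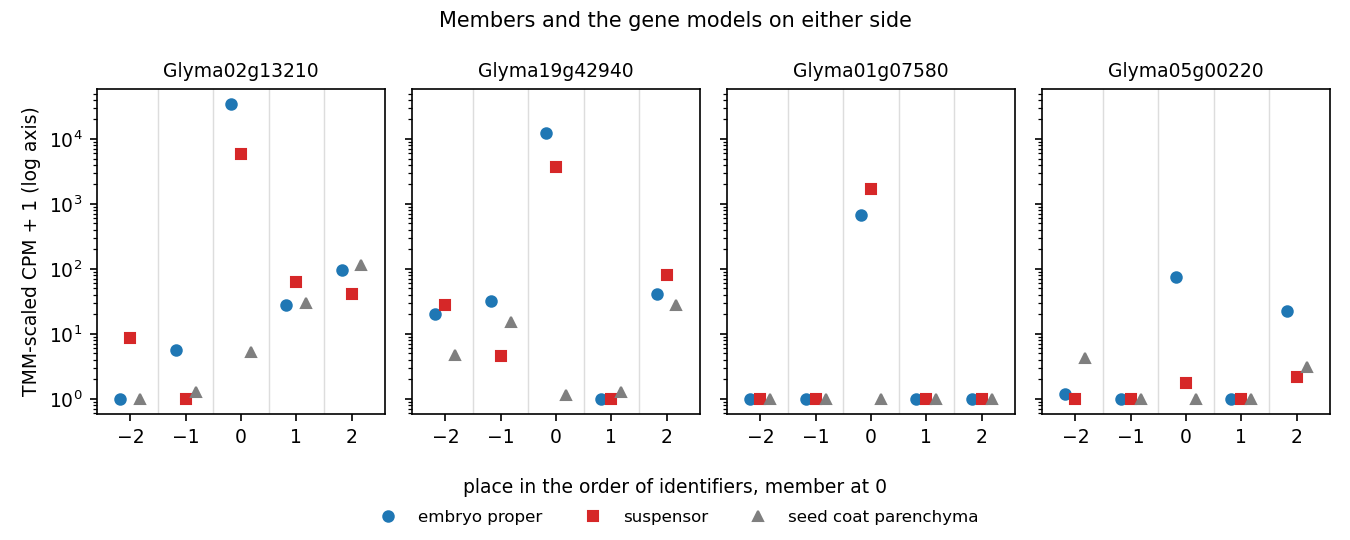
TMM-scaled CPM + 1 (log axis) of each of the 4 gene models, at place 0, and of the 2 gene models before and after it in the order of identifiers, in the 3 libraries. Each member stands above its neighbours in the embryo proper, and all neighbours of Glyma01g07580 lie at 0 reads.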

How the data were processed

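RNA from laser-captured embryo proper, suspensor and seed coat parenchyma was amplified from 3 to 5 ng, followed by 15 PCR cycles, and sequenced as single-end reads of 76 nt, per the labels' protocols. The deposited tables give a raw count of mapped reads per gene model, per the file headers. The submitters' processing notes name the aligner Bowtie. Not given in the sources used here are its version, the genome build, whether strand was used and how reads with several hits were treated. Reads were counted without molecular identifiers, so intervals leave out amplification and tissue variation.

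Counts were scaled with edgeR 4.0.16 (R 4.3.3) TMM factors of 0.994, 0.832 and 1.21 (embryo proper, suspensor, seed coat parenchyma). Ratios have exact Clopper-Pearson intervals of 1 library's share of the reads in both. A count of 0 was set at 3 reads. Alternatives were scaling by DESeq2 (1.42.0), by the upper quartile, by totals alone, by totals after removal of the 50 most abundant gene models or by TMM without the 4 members, thinning, other added constants, minimums and folds, and an interval bound. Steps were tested on simulated data. Python 3.11.15, NumPy 2.4.6, pandas 2.3.3, SciPy 1.17.1 and matplotlib 3.10.9 were used.

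The members and lists were chosen with earlier results of these data known. Named besides the members are the 2 nearest gene models in pattern, the 2 neighbours on each side and the 2 ranked just below the choice. Marker and pathway lists, which rest on product names, could not be applied, and no sequence is printed, since no identifier could be matched.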

Additional observations from a re-analysis of the deposited data

How the results depend on the processing

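No paired analysis was possible because each compartment has 1 library, and no library could be left out for the same reason. No difference of a member changed direction under any of the alternatives. Of 96 alternative log2 ratios of single members 24 moved beyond counting error, and of 72 alternative levels 27 did. The number of members past the fold moved by over 1.5 times under 2 of 78 alternative values, both of them other fold sizes: at 2-fold 1 member was higher in the suspensor than in the embryo proper, and at 8-fold 1 member was higher in the embryo proper than in the suspensor. With unscaled totals 3 members were past 4-fold toward the embryo proper in place of 2, since the ratio of Glyma19g42940 ran from 3.11 with DESeq2 size factors to 4.02 with unscaled totals. Over the same scalings the suspensor excess of Glyma01g07580 ran from 2.71 to 2.10, and the embryo proper excess of Glyma02g13210 from 5.51 to 7.13. Unscaled totals shifted the median log2 difference of all gene models to 0.22, -0.47 and -0.20, in the order embryo proper minus suspensor, suspensor minus seed coat and embryo proper minus seed coat. The added constant set the size of differences that rest on few reads. With 5 CPM added, the embryo proper minus suspensor difference of Glyma05g00220 was 3.81 in place of 5.47. The embryo proper minus seed coat differences were then 11.89 for Glyma02g13210, 11.23 for Glyma19g42940, 7.08 for Glyma01g07580 and 4.0 for Glyma05g00220, in place of 12.72, 13.41, 9.39 and 6.25, so that the first 2 changed order. The suspensor minus seed coat differences were 9.32, 9.48, 8.40 and 0.19, in place of 10.15, 11.66, 10.72 and 0.78. With 0.5 CPM added, 1 of the 2 nearest gene models changed for Glyma02g13210 and for Glyma19g42940. The seed coat values rest on 62 reads of the members in all, and thinning left them within counting error.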
